A study of Mus musculus with 24 samples.

Results

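The 45 genes described here encode collagens and other extracellular matrix proteins of the dermis, 45 of the 27180 genes counted in the series. They were chosen by name, as genes for matrix proteins that fibroblasts and neighbouring cells make, with earlier results of these data known. Every one had counts in every library. By role they comprised 6 fibrillar collagens, 3 fibril-associated and related collagens, 3 chains of collagen VI, 4 basement membrane collagens, 10 genes of elastic fibres and microfibrils, 3 lysyl oxidases, 7 small leucine-rich proteoglycans, 7 matricellular and adhesive proteins, and 2 other proteoglycans. Reads were counted in 24 libraries of mouse skin, 3 in each of 8 groups. The ear groups were C57BL/6 mice (C57) and K14E7 mice (E7), all 8 weeks old. The graft groups were ear skin from C57, E7 or CD1d-/- x K14E7 donors (CD1dKOxE7), taken 14 or 28 days after grafting (dpg). Every graft, the C57 grafts included, was placed on a C57BL/6 recipient, whose own cells can enter the graft and were not told apart from donor cells in these counts. In K14E7 mice the keratin 14 promoter drives the E7 oncoprotein of human papillomavirus type 16 in basal keratinocytes and not in fibroblasts, and CD1d presents lipids to natural killer T cells. The labels do not say whether the 3 libraries of a group came from separate animals, so p-values measure only the spread between these samples, which may be technical.

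Fibroblasts secrete fibrillar collagens as precursors that are folded in the endoplasmic reticulum, trimmed outside the cell, assembled into fibrils and crosslinked by lysyl oxidases. Small leucine-rich proteoglycans coat the fibrils and set their spacing, elastin is laid down on fibrillin microfibrils, and matricellular proteins such as tenascin C and periostin appear where tissue is remodelled or healing. In skin wounds a provisional matrix with fibronectin is followed by new collagen, which is later reshaped into scar or mature dermis.

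Levels are CPM, read counts scaled to a common library size, and differences are log2 fold changes ± standard error (SE) from edgeR, a count model. A gene was called at an adjusted p under 0.05, and only called genes are said to have risen or fallen. In bulk tissue, fewer cells of a type and less RNA per cell cannot be told apart. Library totals ran from 6550011 to 13814448 counts, and the member with the fewest counts in any library, Prg4, had 23 there. Keratin 14 and the fibroblast receptor gene Pdgfra were present in all 24 libraries, and so were the cartilage genes Col2a1 and Acan. Counts of the E7 transgene were 0 to 2 in C57 libraries and 141 to 594 in E7 and CD1dKOxE7 libraries. Cd1d1 did not separate the libraries labelled CD1dKOxE7 at 14 dpg, at 11.4 to 17.3 CPM, from E7 grafts of that day at 14.3 to 16.8 CPM. At 28 dpg, replicates 1 and 2 labelled CD1dKOxE7 had 5.34 and 4.44 CPM of Cd1d1, and replicate 3 had 14.7 CPM. That replicate 3 also had 18.8 CPM of E7 against 44.1 and 44.4 CPM, and stood apart from its group by both genes. At 14 dpg, libraries labelled CD1dKOxE7 had 17.6 to 23.5 CPM of E7, against 33.8 to 40.6 CPM in E7 grafts, without overlap. By both genes, replicate 3 of 28 dpg lay within the range of the 14 dpg libraries of its label, and replicates 1 and 2 lay outside it. Which part of Cd1d1 was deleted is not given in the sources used here, and results on the 28 dpg group are given with and without replicate 3. Ear and graft libraries ran on separate flow cells, and within the graft flow cell the CD1dKOxE7 libraries had a lane to themselves. Tissue and flow cell, and donor and lane in CD1dKOxE7 comparisons, cannot be told apart.

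Start regions of 6 members are shown because they stand for the 2 patterns of the results: Col1a2, Col5a1, Col6a1 and Bgn fell in E7 skin of every setting, while Tnc rose in E7 ear and Postn was not called there. Each run is the 120 bases upstream of an annotated start, from RefSeq on build GRCm38.p6, which held an entry for 29 of the 45 members. The windows are chr6:4505498-4505617 (plus strand) for Col1a2, chr2:27886305-27886424 (plus) for Col5a1, chr10:76726045-76726164 (minus) for Col6a1, chrX:73483481-73483600 (plus) for Bgn, chr4:64046937-64047056 (minus) for Tnc and chr3:54360987-54361106 (plus) for Postn, the last listed of 2 starts for Tnc and for Postn. Capitals mark matches on either strand to the TATA-like letters TATAA, the box CCAAT, the GC box GGGCGG or the AP-1 motif TGACTCA.
Col1a2: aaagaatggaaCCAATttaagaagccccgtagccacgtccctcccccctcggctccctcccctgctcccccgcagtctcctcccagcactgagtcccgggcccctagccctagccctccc
Col5a1: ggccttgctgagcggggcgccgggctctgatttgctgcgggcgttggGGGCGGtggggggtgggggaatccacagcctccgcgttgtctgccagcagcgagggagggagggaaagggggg
Col6a1: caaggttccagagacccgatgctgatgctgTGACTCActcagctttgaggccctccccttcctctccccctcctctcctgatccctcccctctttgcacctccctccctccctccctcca
Bgn: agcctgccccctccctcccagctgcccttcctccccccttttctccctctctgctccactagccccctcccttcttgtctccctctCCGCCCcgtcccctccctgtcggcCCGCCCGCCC
Tnc: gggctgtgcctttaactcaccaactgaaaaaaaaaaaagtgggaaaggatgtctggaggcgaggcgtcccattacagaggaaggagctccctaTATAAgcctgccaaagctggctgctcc
Postn: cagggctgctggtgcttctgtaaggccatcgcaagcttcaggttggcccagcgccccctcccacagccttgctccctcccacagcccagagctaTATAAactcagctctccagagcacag
Tnc and Postn each held TATAA on the strand of the gene, at bases -27 to -23 and -26 to -22 from the start. Col1a2 held CCAAT at -109 to -105, Col5a1 held GGGCGG at -73 to -68, and Col6a1 held TGACTCA at -90 to -84. Bgn held GGGCGG on the opposite strand at 3 positions, the last 2 of which overlap. Over the 29 members with an entry, TATAA was in 3 (10.3%) against 13.7% of 27025 genes, CCAAT in 6 (20.7%) against 24.2%, GGGCGG in 11 (37.9%) against 29.1% and TGACTCA in 2 (6.90%) against 2.68%. These are letter matches and not evidence of binding.

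Matrix transcripts were a smaller part of the RNA in E7 skin than in C57 skin of the same setting, and a larger part in C57 and E7 grafts than in ear of the same genotype. The 45 genes took up 1.85, 1.89 and 2.03% of all counts in C57 ear and 0.624, 0.960 and 0.791% in E7 ear. At 14 dpg the share was 5.92, 5.16 and 7.33% in C57 grafts, 2.59, 3.97 and 3.37% in E7 grafts, and 2.33, 2.58 and 2.11% in grafts labelled CD1dKOxE7. At 28 dpg it was 6.29, 3.59 and 6.04% in C57 grafts, 2.48, 2.27 and 3.23% in E7 grafts, and 1.50, 1.82 and 2.33% in grafts labelled CD1dKOxE7. C57 and E7 libraries did not overlap in ear or on either day, and the mean share in E7 was lower by 2.43 times in ear, 1.85 times at 14 dpg and 2.00 times at 28 dpg. Col1a1, Col1a2 and Col3a1 alone made up 3.44% ± 0.57 (SD, n = 3) of the counts in C57 grafts at 14 dpg.

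**Figure D1:**
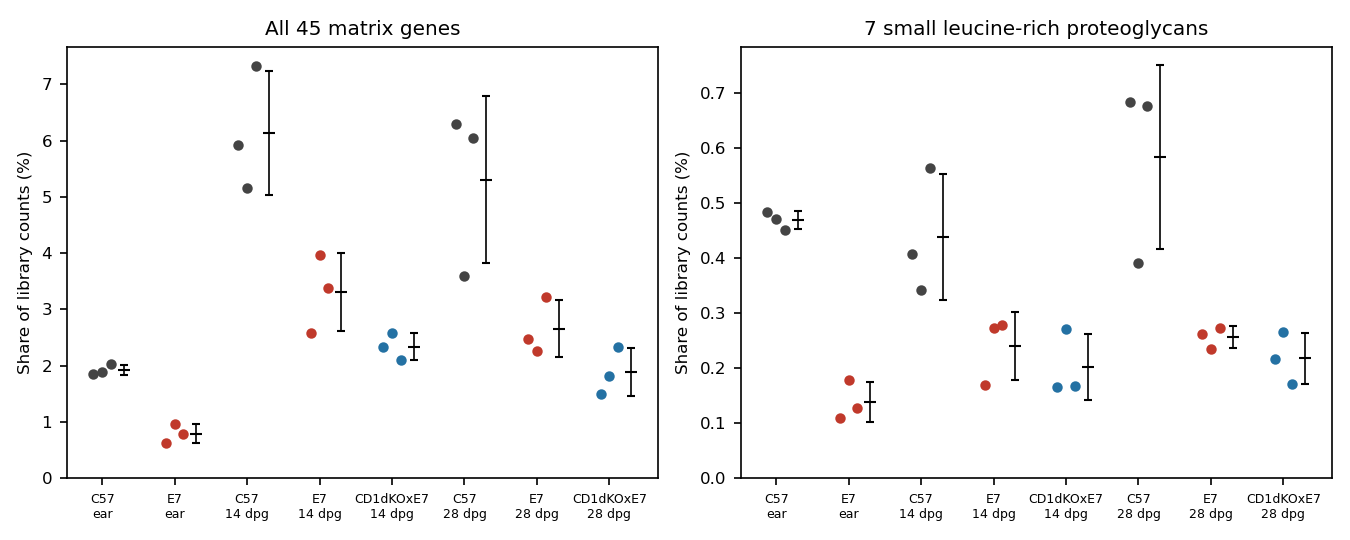
Share of each library's counts, in percent, that fell in all 45 matrix genes (left) and in the 7 small leucine-rich proteoglycans (right). Each point is a library, and the bar beside it is the mean ± SD of 3 libraries. On the left every C57 graft lies above every E7 graft of its day, while on the right C57 grafts at 14 dpg, at 0.343 to 0.565%, span the range of C57 ear.

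Per kilobase of exon, decorin led the members in C57 ear at 426 ± 27.9 CPM per kilobase (SD, n = 3), followed by Sparc at 267 ± 13.9, Col3a1 at 240 ± 48.5 and Col1a1 at 224 ± 19.3, and neither Sparc and Col3a1 nor Col3a1 and Col1a1 differed beyond their spread. In E7 ear the first places were Postn at 153 ± 29.1 and Dcn at 143 ± 37.6 CPM per kilobase, again within their spread. C57 grafts at 14 dpg were led by Col1a1 at 1782 ± 286.2 and Col3a1 at 1594 ± 340 CPM per kilobase, with Dcn ninth at 233 ± 76.3. Col1a1 and Col3a1 held the leading 2 places in every graft group, in the reverse order in grafts labelled CD1dKOxE7 at 28 dpg. The length used merges all annotated exons of a gene, 12426 bases for Col1a2 and 6563 for Col1a1, and is not that of a transcript. The order across genes is therefore approximate.

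In ear, E7 skin had lower transcript levels of nearly the whole set. Of the 45 genes 41 fell, where 32.7% of the 15720 genes tested fell, and Tnc alone rose, where 32.6% of genes rose. The median over the members was -1.26 and that over all genes 0.00. All members of 6 of the 9 roles fell: the 6 fibrillar collagens, the 3 collagen VI chains, the 10 elastic fibre genes, the 3 lysyl oxidases, the 7 small leucine-rich proteoglycans and the 2 other proteoglycans. The 4 largest falls were those of Fmod, Sparc, Prelp and Bgn, and the 3 genes not called were Col12a1, Col18a1 and Postn. Leaving out 1 library at a time left 39 to 42 members called, and 38 of the 42 calls held in every such fit, the exceptions being Col1a1, Col1a2, Fbln1 and Lox. Over all genes, these fits called 9425 to 9989, against 10267 in the full fit.

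E7 grafts also had lower matrix transcripts than C57 grafts, by a smaller median. At 14 dpg 28 of the 45 fell and 17 were not called, where 14.4% of 16189 genes fell. At 28 dpg 25 fell and 20 were not called, where 14.7% of genes fell. The medians over the members were -0.84 and -0.82, and those over all genes -0.04 and 0.01. Side by side, 20 members fell in ear and on both days, 8 in ear and at 14 dpg, 5 in ear and at 28 dpg. Another 8 fell in ear alone. These joint counts were not taken over all genes, so how far they exceed those of other genes is not known. The 20 held all 6 fibrillar collagens and all 3 collagen VI chains, and ear and graft comparisons share no library. The graft counts leaned on single libraries: 6 members were called at 14 dpg without C57 replicate 3, 7 without E7 replicate 1 and 18 without E7 replicate 3. At 28 dpg 7 were called without E7 replicate 2, 9 without C57 replicate 3, 10 without C57 replicate 1 and 11 without E7 replicate 1. The median over the members stayed between -1.03 and -0.70 in all of these fits, and all 53 calls kept their direction.

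**Figure D2:**
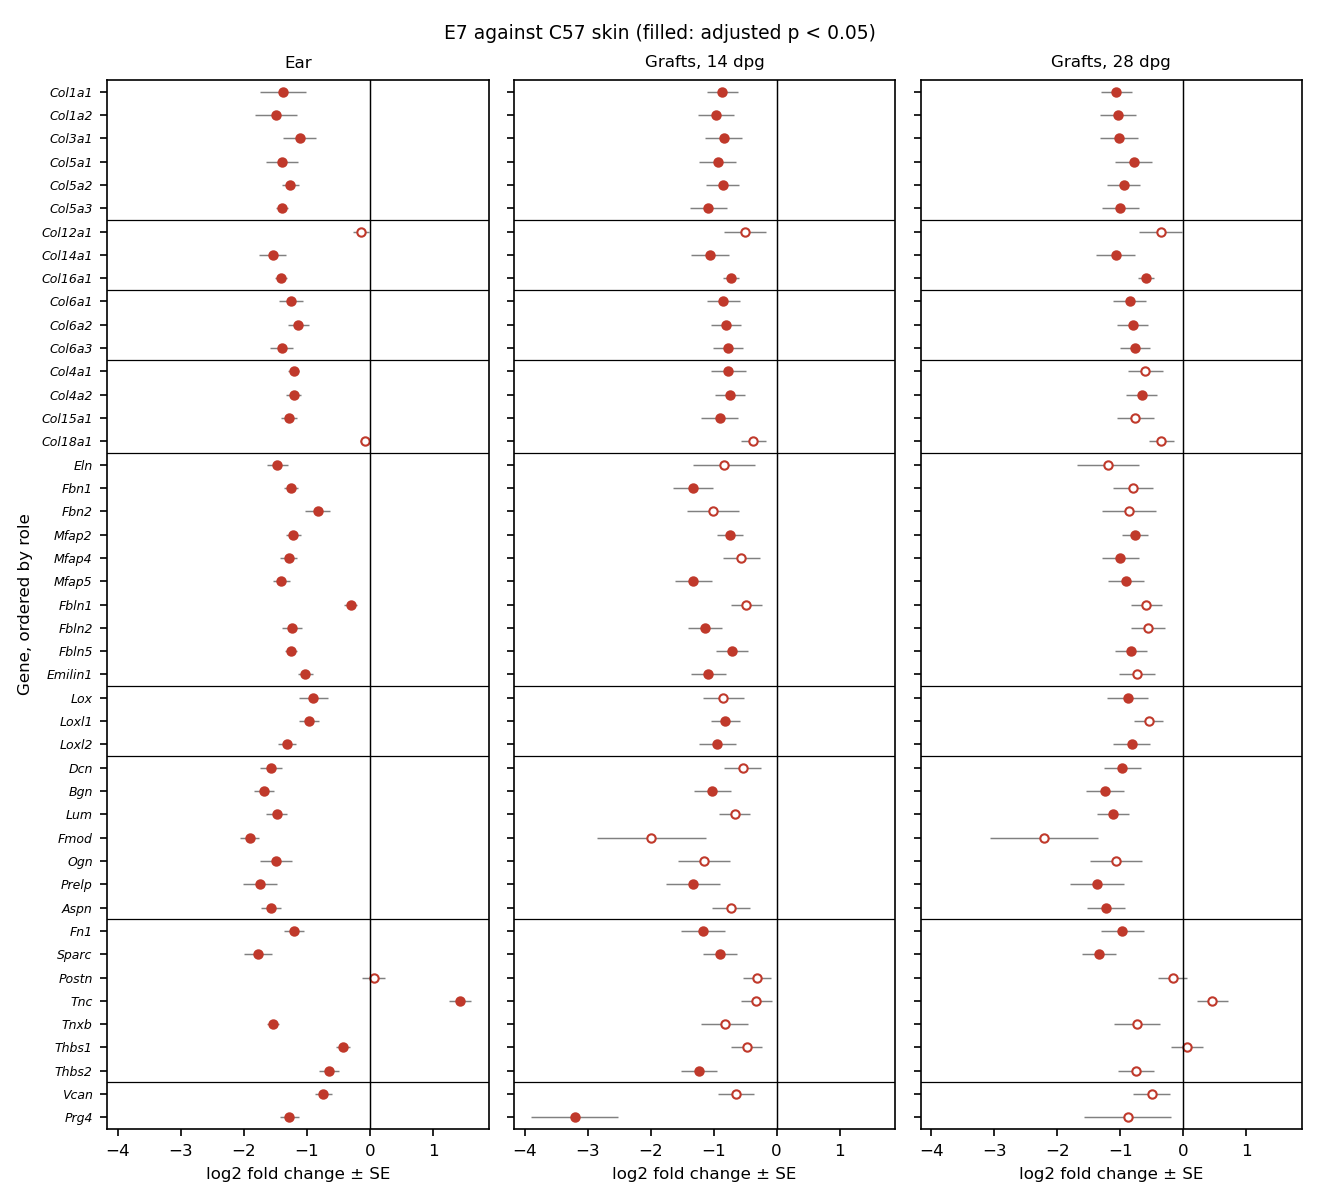
Log2 fold change ± SE of each of the 45 genes, E7 against C57, in ear, in grafts at 14 dpg and in grafts at 28 dpg. Filled points were called at an adjusted p under 0.05, and black lines separate the roles. Points lie left of 0 for nearly every gene, while Tnc lies at 1.43 in ear.

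Type I collagen, the main fibre of the dermis, is built from the products of Col1a1 (chr11:94936224-94953042) and Col1a2. Col1a1 was at 1328, 1511 and 1570 CPM in C57 ear and 325, 848 and 518 CPM in E7 ear. Col1a1 at 14 dpg was at 11496, 9919 and 13661 CPM in C57 grafts, 5014, 7970 and 6118 in E7 grafts and 3890, 3743 and 3643 in grafts labelled CD1dKOxE7. At 28 dpg the values were 11666, 6192 and 10244 CPM in C57, 3928, 4195 and 5178 in E7 and 1745, 2207 and 3316 in CD1dKOxE7 grafts. The donors did not overlap on either day, with C57 highest and CD1dKOxE7 lowest, and every graft library lay above every ear library. Col1a1 fell in E7 ear by 1.38 ± 0.37 (adjusted p = 0.0224), in E7 grafts at 14 dpg by 0.86 ± 0.25 (adjusted p = 0.0164) and at 28 dpg by 1.06 ± 0.25 (adjusted p = 0.004). In ear its adjusted p was 0.0877 without C57 replicate 3, the highest of the fits without 1 library.

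Col1a2 was at 1513, 1608 and 1626 CPM in C57 ear and 343, 825 and 515 CPM in E7 ear. Col1a2 at 14 dpg was at 7887, 6477 and 9426 CPM in C57, 3211, 5118 and 3827 in E7 and 2663, 2707 and 2614 in CD1dKOxE7 grafts. Col1a2 at 28 dpg was at 7431, 3492 and 6869 CPM in C57, 2470, 2460 and 3681 in E7 and 1291, 1711 and 2558 in CD1dKOxE7 grafts. C57 replicate 2 was the lowest of its group at 28 dpg and lay below E7 replicate 3, whereas ear and the 14 dpg donors did not overlap. Col1a2 fell by 1.50 ± 0.33 (adjusted p = 0.0112) in ear, by 0.95 ± 0.29 (adjusted p = 0.0209) at 14 dpg and by 1.03 ± 0.29 (adjusted p = 0.0118) at 28 dpg.

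Col3a1 encodes type III collagen, which is abundant in young dermis and early scars. It was at 2204, 1981 and 2895 CPM in C57 ear and 769, 1442 and 1048 CPM in E7 ear. The 14 dpg values were 15527, 12375 and 19050 CPM in C57, 6801, 10693 and 8500 in E7 and 5425, 5842 and 4639 in CD1dKOxE7 grafts. The 28 dpg values were 14343, 7606 and 14312 CPM in C57, 5141, 4560 and 7944 in E7 and 3032, 3847 and 6070 in CD1dKOxE7 grafts. As for Col1a2, only C57 replicate 2 at 28 dpg reached into the E7 range. Col3a1 fell by 1.12 ± 0.26 (adjusted p = 0.0103) in ear, by 0.84 ± 0.29 (adjusted p = 0.0423) at 14 dpg and by 1.02 ± 0.30 (adjusted p = 0.0146) at 28 dpg.

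Type V collagen nucleates collagen I fibrils and limits their width. Its chain gene Col5a1 was at 242, 272 and 275 CPM in C57 ear and 75.8, 141 and 84.8 CPM in E7 ear. In C57, E7 and CD1dKOxE7 grafts at 14 dpg it was at 1106, 912 and 1237, then 455, 724 and 508, then 447, 445 and 418 CPM. At 28 dpg the same order gave 777, 489 and 746, then 358, 292 and 504, then 184, 229 and 440.4 CPM. The groups were apart in ear and at 14 dpg and overlapped at 28 dpg. Col5a1 fell by 1.39 ± 0.25 (adjusted p = 0.00524) in ear, by 0.94 ± 0.29 (adjusted p = 0.0265) at 14 dpg and by 0.78 ± 0.29 (adjusted p = 0.0493) at 28 dpg. Col5a2 and Col5a3, the other chains, fell in all 3 comparisons too, by 1.26 and 1.40 in ear, 0.86 and 1.08 at 14 dpg and 0.95 and 1.00 at 28 dpg.

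Collagen XII and collagen XIV sit on the surface of fibrils and link them to other matrix, and the member genes differed. Col12a1 was at 92.2, 120.3 and 105 CPM in C57 ear and 81.1, 105 and 101 CPM in E7 ear. Col12a1 at 14 dpg was at 691, 494 and 598 in C57, 386, 607 and 256 in E7 and 502, 267 and 406 CPM in CD1dKOxE7 grafts. Col12a1 at 28 dpg was at 223, 125 and 214 CPM in C57, 135, 124 and 176 in E7 and 74.0, 98.5 and 155 in CD1dKOxE7 grafts. C57 and E7 overlapped in all 3 settings, with differences of -0.14 ± 0.12 (adjusted p = 0.332) in ear, -0.50 ± 0.34 (adjusted p = 0.276) at 14 dpg and -0.36 ± 0.34 (adjusted p = 0.438) at 28 dpg.

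Col14a1 was at 64.1, 65.2 and 92.7 CPM in C57 ear and 19.6, 29.7 and 26.8 CPM in E7 ear. Col14a1 at 14 dpg was at 367, 305 and 541 CPM in C57, 129.8, 220.0 and 228 in E7 and 112, 189 and 114 in CD1dKOxE7 grafts, and at 28 dpg at 467, 258 and 479 CPM in C57, 163, 157 and 246 in E7 and 134, 140.2 and 161 in CD1dKOxE7 grafts. C57 lay above E7 in every setting without overlap. Col14a1 fell by 1.54 ± 0.21 (adjusted p = 0.00087) in ear, by 1.05 ± 0.30 (adjusted p = 0.0191) at 14 dpg and by 1.07 ± 0.30 (adjusted p = 0.0146) at 28 dpg. Col16a1 (chr4:130047817-130099277), for a minor collagen of fibril surfaces and microfibrils, fell in ear by 1.41 ± 0.09 (adjusted p = 6.56e-07) and by 0.72 and 0.60 at 14 and 28 dpg.

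Collagen VI forms beaded microfibrils around cells. Col6a1 was at 347, 395 and 345 CPM in C57 ear and 112, 191 and 152 CPM in E7 ear. Col6a1 at 14 dpg was at 821, 702 and 1013 CPM in C57, 369, 617 and 414 in E7 and 342, 326 and 315 in CD1dKOxE7 grafts. Col6a1 at 28 dpg was at 743, 371 and 652 CPM in C57, 297, 270.2 and 399 in E7 and 194, 239 and 339 in CD1dKOxE7 grafts. At 28 dpg only C57 replicate 2 reached the E7 range. Col6a1 fell by 1.26 ± 0.19 (adjusted p = 0.00162) in ear, by 0.84 ± 0.26 (adjusted p = 0.0265) at 14 dpg and by 0.85 ± 0.26 (adjusted p = 0.0218) at 28 dpg, and the falls of Col6a2 and Col6a3 were 1.14 and 1.40, 0.80 and 0.77, and 0.80 and 0.76 in the same order.

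Collagen IV is the network of basement membranes, and collagens XV and XVIII lie at their dermal face. Col4a1, Col4a2 and Col15a1 fell in E7 ear by 1.21, 1.21 and 1.29 and at 14 dpg by 0.76, 0.74 and 0.91. Of the 4, Col4a2 alone fell at 28 dpg, by 0.66 ± 0.25 (adjusted p = 0.0494). Col18a1 was at 86.4, 98.8 and 98.4 CPM in C57 ear and 87.8, 96.5 and 84.5 CPM in E7 ear, and the groups overlapped. Its difference was -0.08 ± 0.07 (adjusted p = 0.368) in ear, -0.37 at 14 dpg and -0.35 at 28 dpg, and it was not called in any of them. Endothelial cells and keratinocytes, which make basement membrane collagens as well, were not separated from fibroblasts: all 5 endothelial markers fell in E7 ear, where their sum was 71.1 to 91.0 CPM against 164 to 177 CPM in C57 ear. The part of these cells in the result was not tested.

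Elastin, the rubber-like core of elastic fibres, was variable in grafts. Eln (chr5:134702595-134747368) was at 505, 586 and 591 CPM in C57 ear and 171, 257 and 179 CPM in E7 ear. Eln at 14 dpg was at 1183, 785 and 1999 CPM in C57, 337, 957 and 911 in E7 and 203, 395 and 221 in CD1dKOxE7 grafts, and at 28 dpg at 2262, 698 and 1385 CPM in C57, 809.8, 507 and 561 in E7 and 303, 382 and 198 in CD1dKOxE7 grafts. C57 and E7 were apart in ear and overlapped on both days. Eln fell in ear by 1.47 ± 0.16 (adjusted p = 0.000161), and the graft differences were -0.83 ± 0.49 (adjusted p = 0.212) and -1.19 ± 0.49 (adjusted p = 0.0744).

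Fibrillin 1, encoded by Fbn1, forms the microfibrils on which elastin is laid. Fbn1 was at 244, 264 and 275 CPM in C57 ear and 90.9, 128 and 109.6 CPM in E7 ear. Fbn1 at 14 dpg was at 779, 612 and 954 CPM in C57, 234, 337 and 351 in E7 and 275, 382 and 302 in CD1dKOxE7 grafts, and at 28 dpg at 727, 449 and 674 CPM in C57, 311, 235 and 507 in E7 and 229, 256 and 474 in CD1dKOxE7 grafts. C57 lay above E7 in ear and at 14 dpg, and the donors overlapped at 28 dpg. Fbn1 fell by 1.25 ± 0.11 (adjusted p = 1.37e-05) in ear and by 1.33 ± 0.32 (adjusted p = 0.00723) at 14 dpg, with -0.80 ± 0.32 (adjusted p = 0.0635) at 28 dpg. The microfibril-associated genes Mfap2 and Mfap5 and the fibulin gene Fbln5 fell in all 3 comparisons. Fbln2 and Emilin1 fell in ear and at 14 dpg, Mfap4 in ear and at 28 dpg, and Fbn2 and Fbln1 in ear, where the fall of Fbln1 was the smallest of the set at 0.30.

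Lysyl oxidases crosslink collagen and elastin. Lox was at 81.9, 96.1 and 78.5 CPM in C57 ear and 36.5, 62.5 and 38.8 CPM in E7 ear. Lox at 14 dpg was at 275, 173 and 363 CPM in C57, 102, 209.8 and 135 in E7 and 84.7, 118 and 91.1 in CD1dKOxE7 grafts, and at 28 dpg at 218, 98.4 and 176 CPM in C57, 79.6, 76.4 and 109 in E7 and 56.2, 61.0 and 74.9 in CD1dKOxE7 grafts. Donors were apart in ear and overlapped in grafts. Lox fell by 0.90 ± 0.22 (adjusted p = 0.0142) in ear, where its adjusted p was 0.0510 without E7 replicate 3. It fell at 28 dpg by 0.88 ± 0.33 (adjusted p = 0.0495). Loxl1 fell by 0.97 in ear and 0.81 at 14 dpg, and Loxl2 by 1.32, 0.94 and 0.82 in ear, at 14 and at 28 dpg.

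Small leucine-rich proteoglycans fell in E7 ear by a median of 1.57, the largest of the 9 roles. Decorin, which binds collagen fibrils and growth factors, is encoded by Dcn (chr10:97479500-97518163), at 2642, 2500 and 2317 CPM in C57 ear and 684, 1088 and 739 CPM in E7 ear. Dcn at 14 dpg was at 1213, 1007 and 1860 CPM in C57, 652, 1043 and 1079 in E7 and 583, 1042 and 589 in CD1dKOxE7 grafts, and at 28 dpg at 2463, 1734 and 2733 CPM in C57, 1112, 1025 and 1363 in E7 and 1056, 1288 and 779 in CD1dKOxE7 grafts. C57 and E7 overlapped at 14 dpg and were apart in ear and at 28 dpg. Dcn fell by 1.57 ± 0.17 (adjusted p = 6.31e-05) in ear and by 0.97 ± 0.29 (adjusted p = 0.0196) at 28 dpg, with -0.54 ± 0.29 (adjusted p = 0.172) at 14 dpg.

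Lumican, a keratan sulfate proteoglycan of fibrils, followed the same calls. Lum was at 333, 294 and 357 CPM in C57 ear and 87.8, 134 and 129 CPM in E7 ear. Lum at 14 dpg was at 674, 578 and 1014 CPM in C57, 337, 582 and 496 in E7 and 281, 362 and 235 in CD1dKOxE7 grafts, and at 28 dpg at 919, 564 and 1012 CPM in C57, 377, 354 and 405 in E7 and 326, 379 and 317 in CD1dKOxE7 grafts. The donors C57 and E7 overlapped at 14 dpg by a few CPM and not at 28 dpg. Lum fell by 1.48 ± 0.17 (adjusted p = 0.000327) in ear and by 1.12 ± 0.25 (adjusted p = 0.00351) at 28 dpg, with -0.66 ± 0.25 (adjusted p = 0.0561) at 14 dpg.

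Biglycan (Bgn), the relative of decorin, fell by 1.69 ± 0.16 (adjusted p = 5.14e-05) in ear, by 1.02 at 14 dpg and by 1.24 at 28 dpg. Prelp, for a proteoglycan that ties basement membrane to collagen, fell by 1.75, 1.33 and 1.37, and asporin (Aspn) by 1.57 in ear and 1.22 at 28 dpg. Ogn and Fmod, which cartilage and tendon also make, fell in ear and were not called in grafts. Fmod, for fibromodulin, was at 346, 397 and 314 CPM in C57 ear and 75.2, 111 and 95.4 CPM in E7 ear, a fall by 1.91 ± 0.15 (adjusted p = 2.95e-05). In E7 grafts it was at 12.7, 26.2 and 59.9 CPM at 14 dpg and 99.1, 76.8 and 10.5 CPM at 28 dpg, against 117, 88.7 and 195 and 491, 103 and 278 CPM in C57 grafts. Its graft differences were -1.99 ± 0.87 (adjusted p = 0.0961) and -2.21 ± 0.85 (adjusted p = 0.0575), with the widest SE of any member.

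Cartilage markers were lower in E7 ear as well. All 6 of the 7 cartilage markers that could be tested fell in E7 ear, where their sum was 90.4 to 96.7 CPM against 346 to 408 CPM in C57 ear. None of the 6 was called between E7 and C57 grafts by edgeR, with medians of -1.94 at 14 dpg and -2.05 at 28 dpg. In E7 grafts at 28 dpg the cartilage collagen gene Col2a1 was at 62.7, 69.9 and 1.12 CPM, and the third replicate was also the lowest for Fmod. Over all graft libraries the sum of the cartilage markers ran from 5.87 to 929 CPM, and Matn1 was at 0 in 15 of the 24 libraries. The part of cartilage in the levels of the members was not tested.

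Matricellular and adhesive proteins include Tnc, the member that rose in E7 ear, and Postn, which was not called there. Tenascin C, a glycoprotein of healing and remodelling tissue, is encoded by Tnc (chr4:63959785-64047015), at 82.7, 115 and 77.7 CPM in C57 ear and 239, 221 and 284 CPM in E7 ear. Tnc at 14 dpg was at 528, 380.4 and 582 CPM in C57, 353, 435 and 391 in E7 and 589.8, 439 and 412 in CD1dKOxE7 grafts, and at 28 dpg at 208, 89.8 and 135 CPM in C57, 179, 168 and 243 in E7 and 186, 196 and 225 in CD1dKOxE7 grafts. All E7 ear libraries lay above all C57 ear libraries, and the donors overlapped in grafts. Tnc rose in E7 ear by 1.43 ± 0.18 (adjusted p = 0.000513), and was not called in grafts at -0.33 ± 0.25 (adjusted p = 0.333) and 0.46 ± 0.25 (adjusted p = 0.163).

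Periostin, which supports collagen assembly and is induced in wounds, is encoded by Postn (chr3:54359267-54391041). Postn was at 1336, 1005 and 1504 CPM in C57 ear and 1217, 1163 and 1626 CPM in E7 ear. Postn at 14 dpg was at 3232, 3331 and 4335 CPM in C57, 2114, 3786 and 2793 in E7 and 1587, 1587 and 1414 in CD1dKOxE7 grafts, and at 28 dpg at 2249, 1521 and 2871 CPM in C57, 1757, 1650 and 2436 in E7 and 1755, 1863 and 1539 in CD1dKOxE7 grafts. C57 and E7 overlapped in every setting. The E7 differences were 0.06 ± 0.18 (adjusted p = 0.79) in ear, -0.31 ± 0.23 (adjusted p = 0.314) at 14 dpg and -0.17 ± 0.23 (adjusted p = 0.594) at 28 dpg, and the sign in ear turned with the scaling and with single libraries.

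Fibronectin, the adhesive protein of the provisional matrix, is encoded by Fn1. It was at 582, 586 and 664 CPM in C57 ear and 206, 325 and 263 CPM in E7 ear. Fn1 at 14 dpg was at 1585, 1030 and 2646 CPM in C57, 509, 895 and 903 in E7 and 530.1, 781 and 539.9 in CD1dKOxE7 grafts, and at 28 dpg at 1828, 859.8 and 1614 CPM in C57, 739, 543 and 895 in E7 and 542, 693 and 639 in CD1dKOxE7 grafts. C57 and E7 were apart in ear and at 14 dpg. Fn1 fell by 1.20 ± 0.16 (adjusted p = 0.000346) in ear, by 1.17 ± 0.35 (adjusted p = 0.021) at 14 dpg and by 0.96 ± 0.35 (adjusted p = 0.0429) at 28 dpg.

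Sparc encodes osteonectin, a collagen-binding protein needed for normal fibrils. Its level was 954, 1028 and 1056 CPM in C57 ear and 231, 402 and 251 CPM in E7 ear. Sparc at 14 dpg was 2735, 2137 and 3335 CPM in C57, 1170, 1670 and 1498 in E7 and 888, 1032 and 841 in CD1dKOxE7 grafts, and at 28 dpg 4025, 1577 and 3219 CPM in C57, 1170, 1038 and 1239 in E7 and 608, 857 and 954 in CD1dKOxE7 grafts. Like Col1a1, it was ordered C57, E7, CD1dKOxE7 on both days without overlap. Sparc fell by 1.78 ± 0.22 (adjusted p = 0.00056) in ear, by 0.91 ± 0.27 (adjusted p = 0.0207) at 14 dpg and by 1.34 ± 0.27 (adjusted p = 0.00178) at 28 dpg.

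Thrombospondins regulate cell adhesion and vessels. Thbs1 was at 471, 557 and 513 CPM in C57 ear and 361, 339 and 444 CPM in E7 ear. Thbs1 at 14 dpg was at 382, 237 and 394 CPM in C57, 182, 239 and 299 in E7 and 304, 265 and 259 in CD1dKOxE7 grafts, and at 28 dpg at 369, 189 and 279.7 CPM in C57, 248, 260.4 and 355 in E7 and 309.7, 249 and 235 in CD1dKOxE7 grafts. Graft donors overlapped on both days. Thbs1 fell by 0.43 ± 0.10 (adjusted p = 0.00411) in ear and was not called in grafts, whereas Thbs2 fell by 0.65 in ear and 1.23 at 14 dpg. Tnxb, for tenascin X of quiet dermis, fell by 1.54 ± 0.10 (adjusted p = 4.12e-07) in ear and was at -0.82 and -0.74 in grafts, not called. With all 24 libraries in the fit Thbs1 was not called in ear (adjusted p = 0.115), nor was Thbs2 (adjusted p = 0.0546).

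Vcan, the gene of the large hydrated proteoglycan versican, fell in ear by 0.74 ± 0.13 (adjusted p = 0.000491) and was not called in grafts. Prg4 encodes lubricin and is a joint and cartilage surface gene with few counts here. It was at 33.4, 31.8 and 28.6 CPM in C57 ear and 14.0, 15.1 and 9.47 CPM in E7 ear. Prg4 at 14 dpg was at 53.9, 11.8 and 115 CPM in C57, 3.65, 7.79 and 7.58 in E7 and 9.24, 13.8 and 7.80 in CD1dKOxE7 grafts, and at 28 dpg at 25.2, 6.16 and 14.8 CPM in C57, 6.21, 10.9 and 8.25 in E7 and 5.12, 11.8 and 5.61 in CD1dKOxE7 grafts. C57 replicates at 14 dpg spread widely, in the same order as Col2a1 at 119, 57.8 and 263 CPM. Prg4 fell by 1.28 ± 0.15 (adjusted p = 3.02e-05) in ear. At 14 dpg Prg4 fell by 3.20 ± 0.69 (adjusted p = 0.00413), and at 28 dpg the difference was -0.88 ± 0.68 (adjusted p = 0.332). Without C57 replicate 3 the 14 dpg value was -2.34 (adjusted p = 0.0229), and with only the compared groups in the fit it was -3.20 (adjusted p = 0.0519), which is not a call. The ear call of Prg4 was likewise lost with all 24 libraries in the fit (adjusted p = 0.0589).

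**Figure D3:**
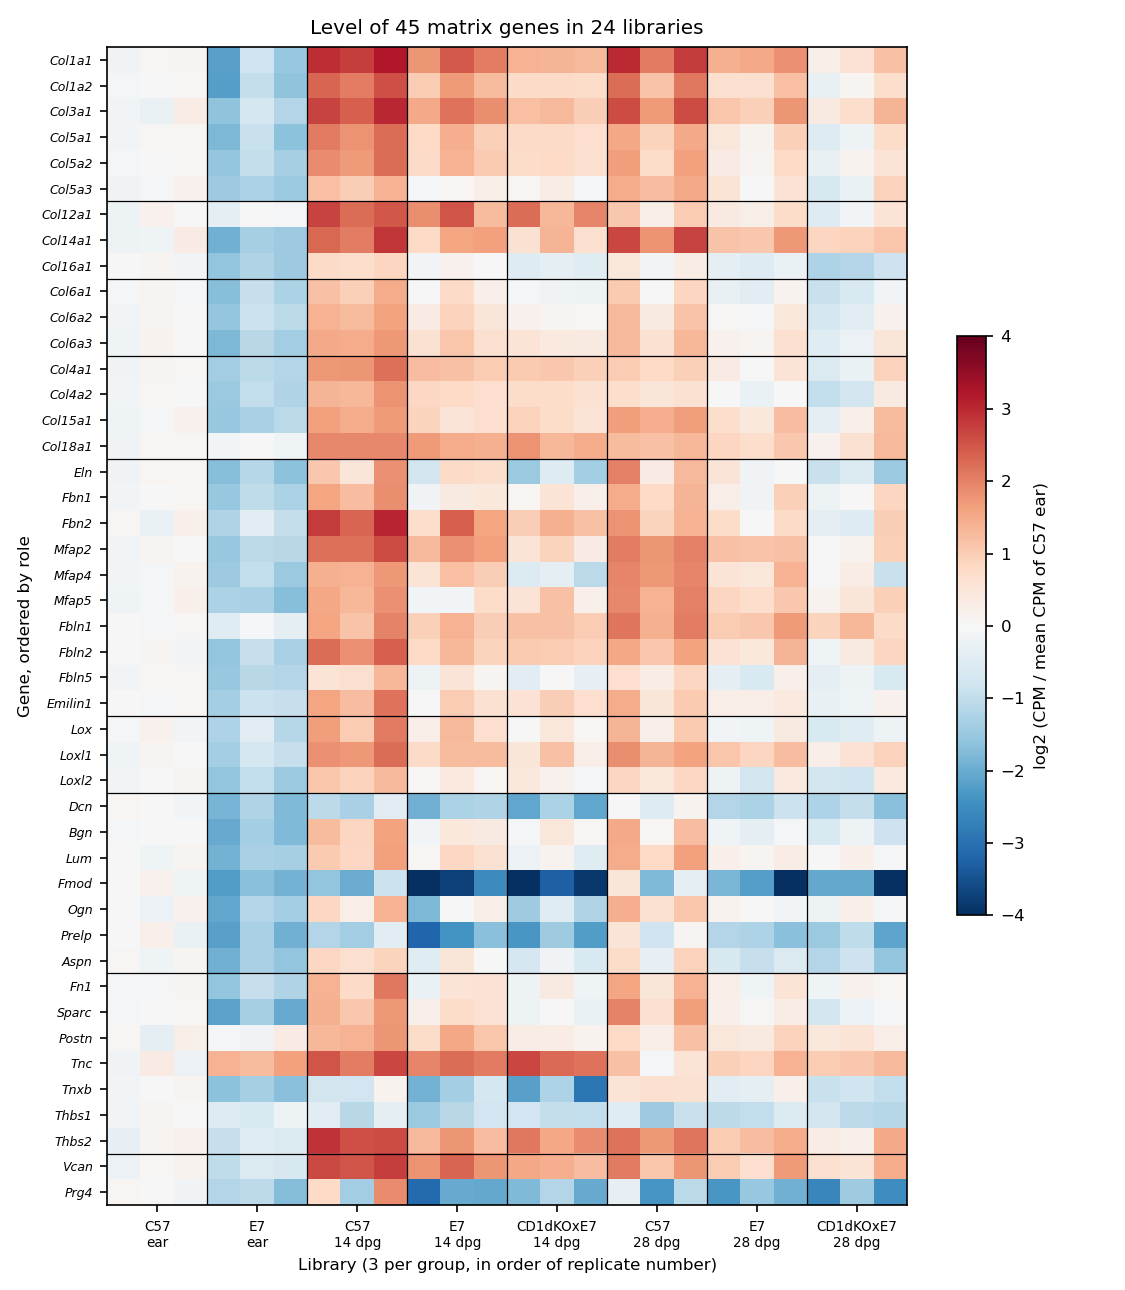
Level of each of the 45 genes (rows, ordered by role) in each of the 24 libraries (columns), as log2 of CPM over the mean CPM of C57 ear, with red higher, blue lower, and colours ending at -4 and 4. The 6 fibrillar collagen rows are red in all 6 C57 grafts, the proteoglycan rows Dcn, Fmod and Prelp are blue in all 6 E7 grafts, and Tnc is red in E7 ear.

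Grafts labelled CD1dKOxE7 were compared with E7 grafts of the same day. At 14 dpg 7 of the 45 members fell, a share close to the 14.8% of all genes that fell, so this count does not set the members apart. The 7 were Mfap4, Eln, Mfap2, Postn, Col1a1, Lum and Col16a1. Mfap4, which binds elastic microfibrils, was at 284, 447 and 386 CPM in E7 and 132, 146 and 91.8 CPM in CD1dKOxE7 grafts, without overlap, and fell by 1.60 ± 0.30 (adjusted p = 0.00112). Mfap2 fell by 0.99 ± 0.21 (adjusted p = 0.00261), Postn by 0.93 ± 0.23 (adjusted p = 0.00626) and Col16a1 by 0.50 ± 0.13 (adjusted p = 0.00751), and these 4 held in every fit without 1 library. Eln fell by 1.44 ± 0.50 (adjusted p = 0.042), Col1a1 by 0.77 ± 0.25 (adjusted p = 0.027) and Lum by 0.70 ± 0.25 (adjusted p = 0.0474). These 3 were lost in some such fits, all of them without E7 replicate 2, which left 4 members called. Without CD1dKOxE7 replicate 1 or replicate 3, too, 4 members were called. Over all genes, the fits without 1 library called 3799 to 4382, against 4828 in the full fit.

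At 28 dpg 44 of the 45 log2 fold changes were negative, with medians of -0.34 over the members and 0.00 over all genes. The members were measured in the same libraries, so their signs are not separate observations. Col16a1 alone fell, where 0.136% of genes fell. Col16a1 was at 204, 186 and 220.2 CPM in E7 and 113, 118 and 148 CPM in CD1dKOxE7 grafts, without overlap, and fell by 0.70 ± 0.13 (adjusted p = 0.0348). Col1a1 was at -0.89 ± 0.25 (adjusted p = 0.145) and Eln at -1.10 ± 0.49 (adjusted p = 0.376). Without replicate 3 labelled CD1dKOxE7, which stood apart by E7 and Cd1d1, 7 members were called, and Col1a1 was at -1.17 (adjusted p = 0.0273). The call of Col16a1 was lost without any other single library of the 2 groups. Over all genes, the fits without 1 library called 4 to 304, against 34 in the full fit. The difference between the days was called for 0 of 45 members by edgeR and by DESeq2. In edgeR 12.8% of genes were called in either direction, and 2 members had an unadjusted p under 0.05. Without replicate 3 the difference was called for 5 members. Over all genes, the fits of this difference without 1 library called 1099 to 3956, against 2080 in the full fit. Macrophage markers stood higher in the CD1dKOxE7 group at 14 dpg, with 3 of 4 called and sums of 479 to 543 CPM against 187 to 320 CPM in E7 grafts. Of the 7 keratinocyte markers 3 fell and 1 rose, and their sum was 24864 to 37816 CPM against 52734 to 93454 CPM, without overlap. At 14 dpg 2 of 8 fibroblast markers rose and none fell, with sums of 828 to 1120 against 743 to 991 CPM that overlapped, and 1 of 5 endothelial markers rose. Of the 11 testable genes of collagen breakdown and uptake 3 rose and none fell, and of the 18 TGF-beta genes 4 rose and 1 fell. Over all genes tested at 14 dpg, 2440 of 16189 rose and 2388 fell. At 28 dpg 1 fibroblast marker fell and no other cell type marker was called by edgeR. The part of these cells and of the lane in the result was not tested.

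**Figure D4:**
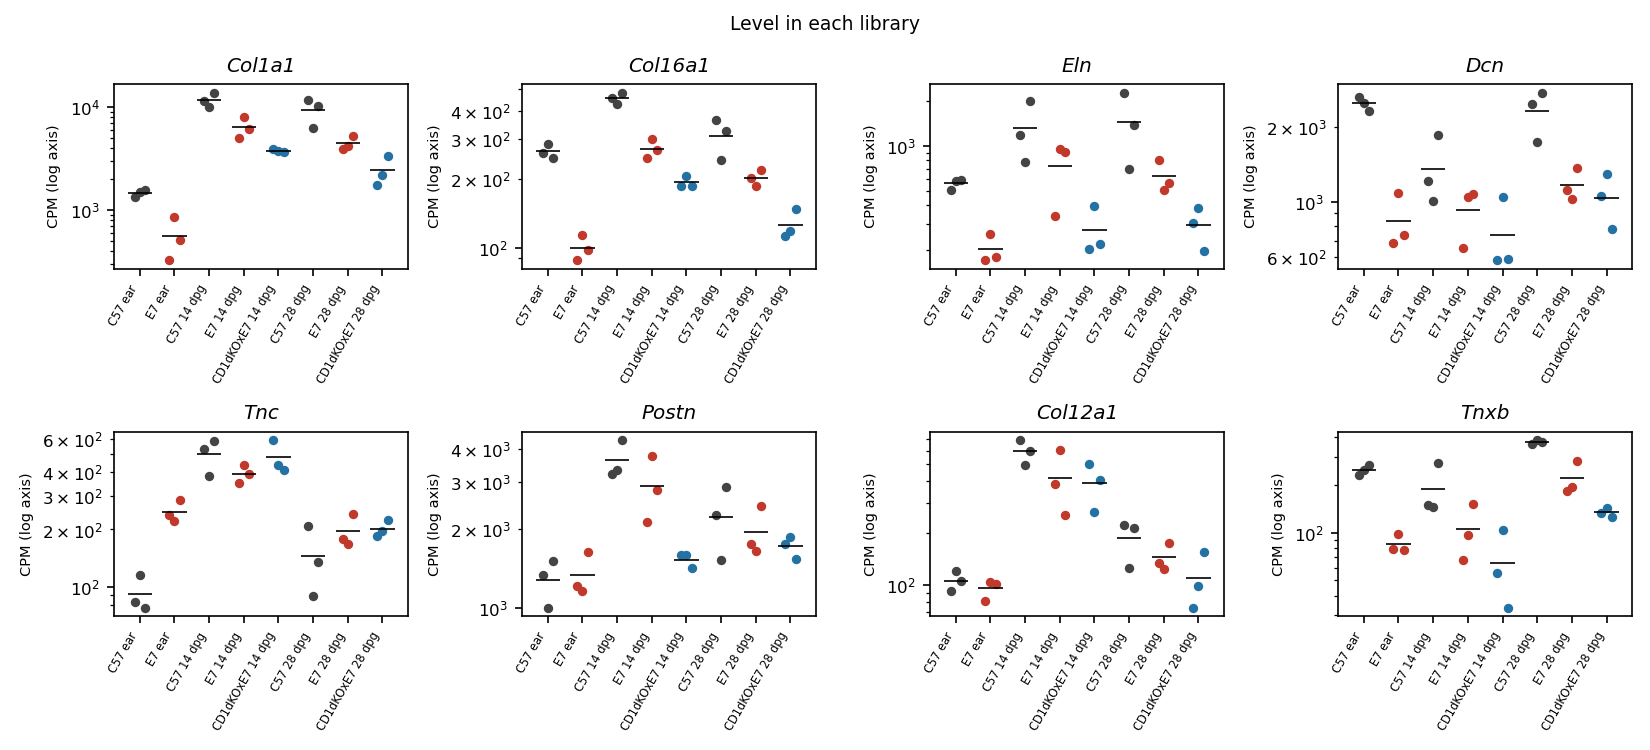
CPM on a log axis of 8 members in each library, by group, with the mean as a line. Col1a1 is ordered C57, E7, CD1dKOxE7 on both days, the group means of Tnc and Col12a1 lie higher at 14 than at 28 dpg in each donor, and E7 ear, at 221 to 284 CPM, lies above C57 ear for Tnc.

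Between 14 and 28 dpg Tnc and Col12a1 fell in each donor, and none of the 6 fibrillar collagens was called by edgeR. In C57 grafts 10 of the 45 fell, where 14.2% of genes fell: Prg4, Tnc, Col12a1, Fbn2, Col4a1, Vcan, Col4a2, Postn, Col18a1 and Col16a1. In E7 grafts 5 fell, a share close to the 9.48% of all genes that fell. In CD1dKOxE7 grafts 8 fell, where 11.8% of genes fell. Col12a1, Tnc, Col16a1, Col4a2 and Col18a1 fell in all 3 donors, and the genes that did so were not counted over all genes. Without 14 dpg replicate 3, Prg4 in C57 grafts was at -1.07 (adjusted p = 0.236). Tnc fell by 1.77 ± 0.25 (adjusted p = 0.00035) in C57, by 0.98 ± 0.25 (adjusted p = 0.0165) in E7 and by 1.24 ± 0.25 (adjusted p = 0.00316) in CD1dKOxE7 grafts. Col12a1 fell by 1.65 ± 0.35 (adjusted p = 0.0039), by 1.51 ± 0.35 (adjusted p = 0.0108) and by 1.83 ± 0.35 (adjusted p = 0.00244) in the same order. Fbn2, the fibrillin of developing and healing tissue, fell in C57 grafts by 1.32 ± 0.42 (adjusted p = 0.0348) and Thbs2 in CD1dKOxE7 grafts by 1.06 ± 0.29 (adjusted p = 0.0169).

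Tnxb stood higher at 28 dpg in each donor without being called by edgeR, at 0.99 ± 0.37 (adjusted p = 0.0697) in C57, 1.08 ± 0.37 (adjusted p = 0.0613) in E7 and 1.06 ± 0.38 (adjusted p = 0.0587) in CD1dKOxE7 grafts. Dcn was at 0.78 ± 0.29 (adjusted p = 0.0713) in C57 grafts. DESeq2 called 2 members higher and 11 lower at 28 dpg in C57 grafts, and 1 higher and 9 lower in E7 and in CD1dKOxE7 grafts. Of its calls over all genes, 41.9, 42.9 and 47.1% were higher in the same order. The edgeR counts rested on single libraries: in C57 grafts 3 members were called without 28 dpg replicate 2, and 5 without 28 dpg replicate 3 or without 14 dpg replicate 1 or 3. In E7 grafts 0 were called without 14 dpg replicate 2, 1 without 28 dpg replicate 1 or 2, and 3 without 14 dpg replicate 1. In CD1dKOxE7 grafts 18 were called without 28 dpg replicate 3 and 3 without 28 dpg replicate 2. There 4 were called without 14 dpg replicate 1 and 5 without 28 dpg replicate 1. Over all genes, the fits without 1 library called 2595 to 3152 in C57, 1211 to 2753 in E7 and 2022 to 5142 in CD1dKOxE7 grafts. The E7 effect at 28 dpg less that at 14 dpg was called for 0 of 45 members by edgeR and by DESeq2, where 0.167% of genes were called; 2 members, Prg4 and Tnc, had an unadjusted p under 0.05 in edgeR. Cell type markers differed between the days as well. Over all genes tested, 1360 of 16189 rose in C57, 1243 in E7 and 1747 in CD1dKOxE7 grafts. In C57 grafts all 5 skeletal muscle markers and 1 of 5 adipocyte markers rose, and 3 of 7 contractile and pericyte and 2 of 7 keratinocyte markers fell. In E7 grafts 2 of 8 fibroblast and 2 of 5 adipocyte markers rose, and 1 contractile and 1 keratinocyte marker fell. In CD1dKOxE7 grafts all 5 endothelial markers fell, with sums of 115 to 252 against 276 to 305 CPM, as did 1 contractile marker, while 2 fibroblast markers rose and 2 fell and 3 keratinocyte markers rose and 2 fell. The part of these cells in the changes of the matrix genes was not tested.

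C57 grafts had more matrix transcript than C57 ear, on another flow cell. At 14 dpg 38 of the 45 rose, where 30.6% of 16612 genes rose, and 2 fell, where 22.0% fell. At 28 dpg 37 rose, where 21.3% of genes rose, and 1 fell, where 18.0% fell. The medians over the members were 1.58 and 1.23, and 0.06 and 0.00 over all genes. The 2 comparisons share the ear libraries, and 36 members rose in each, a joint count that was not taken over all genes. The largest rises at 14 dpg were those of Col1a1 by 2.99 ± 0.31 (adjusted p = 2.63e-07), Fbn2 by 2.75 ± 0.40 (adjusted p = 2.19e-05), Col3a1 by 2.73 ± 0.32 (adjusted p = 9.69e-07) and Thbs2 by 2.70 ± 0.29 (adjusted p = 5.31e-07). At 28 dpg they were Col1a1 by 2.67 ± 0.31 (adjusted p = 3.73e-06), Col14a1 by 2.44 ± 0.31 (adjusted p = 1.34e-05), Col3a1 by 2.36 ± 0.31 (adjusted p = 1.57e-05) and Thbs2 by 2.03 ± 0.28 (adjusted p = 3.05e-05).

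All 6 fibrillar collagens, all 10 elastic fibre genes and all 3 lysyl oxidases rose on both days. The calls of the fibrillar collagens held in every fit without 1 library. That of Eln held in 2 of 6 such fits on each day. At 28 dpg that of Lox held in 2 of 6, and those of Fbln5 and Loxl2 in 1 of 6. Of the 7 small leucine-rich proteoglycans, Bgn, Lum and Aspn rose at 14 dpg and Bgn, Lum and Ogn at 28 dpg. Dcn fell at 14 dpg by 0.87 ± 0.28 (adjusted p = 0.0135) and was at -0.11 ± 0.28 (adjusted p = 0.79) at 28 dpg. Thbs1 fell on both days, by 0.60 ± 0.23 (adjusted p = 0.0336) and by 0.88 ± 0.23 (adjusted p = 0.00572). Fmod was at -1.40 ± 0.72 (adjusted p = 0.113) and Prelp at -0.93 ± 0.39 (adjusted p = 0.0558) at 14 dpg.

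**Figure D5:**
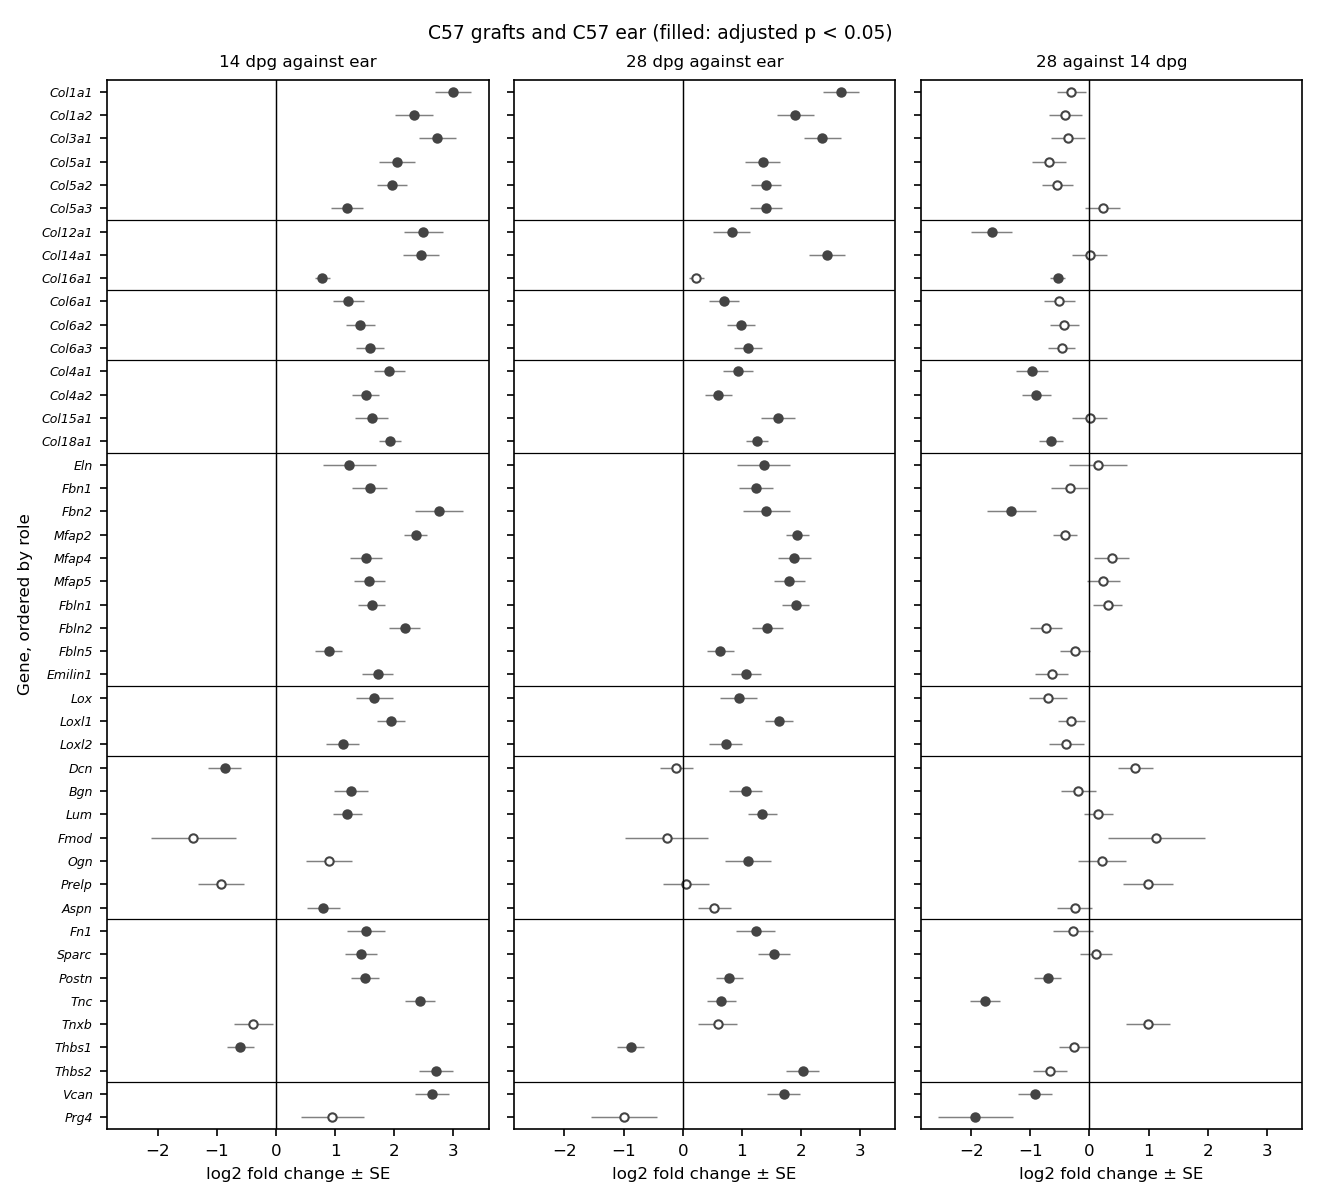
Log2 fold change ± SE of each gene in C57 skin, for grafts at 14 dpg against ear, grafts at 28 dpg against ear, and 28 against 14 dpg, with filled points called at an adjusted p under 0.05. Nearly all genes lie right of 0 in the graft and ear panels, up to 2.99 for Col1a1 at 14 dpg, while Tnc and Col12a1 lie at -1.77 and -1.65 between the days.

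The E7 effect in grafts less that in ear was tested in the fit of all 24 libraries. At 14 dpg it was called for 2 of 45 members, where 12.6% of genes were called in either direction, and at 28 dpg for 1, where 7.43% were. Tnc, which rose in E7 ear and was not called in grafts, had a difference of -1.77 ± 0.34 (adjusted p = 0.00235) at 14 dpg and -0.99 ± 0.35 (adjusted p = 0.0889) at 28 dpg. Col16a1 fell less in grafts than in ear, by 0.67 ± 0.18 (adjusted p = 0.0183) at 14 dpg and 0.79 ± 0.18 (adjusted p = 0.0108) at 28 dpg. At 14 dpg 4 members were called without E7 ear replicate 2 or without C57 graft replicate 3, and at 28 dpg 2 without C57 graft replicate 2. Over all genes, the fits without 1 library called 1394 to 1882 at 14 dpg and 743 to 1097 at 28 dpg.

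Most genes listed for collagen folding, processing, breakdown and uptake, the inhibitor gene Timp3 among them, also fell in E7 skin. Of 26 genes for collagen folding, modification and processing, 22 fell and 2 rose in E7 ear, 17 fell at 14 dpg and 16 fell at 28 dpg, with medians of -1.12, -0.79 and -0.58. In ear those with the smallest adjusted p were Serpinh1, the collagen chaperone, at -1.32 ± 0.09 (adjusted p = 5.21e-07), the lysyl hydroxylase gene Plod1 at -1.14 ± 0.08 (adjusted p = 6.36e-07), Fkbp10 at -1.38 ± 0.11 (adjusted p = 1.15e-06) and Tll1 at -1.98 ± 0.17 (adjusted p = 2.22e-06). The 2 that rose, P4ha3 at 3.57 ± 0.43 (adjusted p = 3.30e-05) and P4hb at 0.46 ± 0.08 (adjusted p = 0.00026), were named after their values were seen. Of the 11 genes for collagen breakdown and uptake that could be tested, of 12, 9 fell and 1 rose in ear, 10 fell at 14 dpg and 8 at 28 dpg. The protease inhibitor gene Timp3 was at -1.83 ± 0.11 (adjusted p = 2.43e-07) in ear and the collagenase gene Mmp13, the 1 that rose, at 3.35 ± 0.42 (adjusted p = 6.97e-05). Mmp14, for a membrane collagenase, was at -0.59 ± 0.06 (adjusted p = 1.10e-05) and Mrc2, for a collagen uptake receptor, at -1.40 ± 0.15 (adjusted p = 0.000104).

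Of 18 genes of transforming growth factor beta signalling, a main inducer of matrix genes, 11 fell and 2 rose in E7 ear. In grafts 7 fell and 1 rose on each day. The ligand genes Tgfb3 and Tgfb2 were at -1.56 ± 0.09 (adjusted p = 8.14e-08) and -1.47 ± 0.11 (adjusted p = 8.37e-07) in ear, the latency gene Ltbp3 at -1.14 ± 0.07 (adjusted p = 1.19e-07) and the coreceptor gene Tgfbr3 at -1.02 ± 0.08 (adjusted p = 1.45e-06). Of 21 other collagens, those of cartilage among them, all 21 fell in E7 ear, 4 at 14 dpg and 5 at 28 dpg. These included Col7a1, for the anchoring fibrils of the epidermis, at -1.32 ± 0.09 (adjusted p = 2.71e-07) in ear.

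Markers of the cells that make the dermis and of those that do not moved as well. Of 8 fibroblast markers 7 fell and 1 rose in E7 ear, where their sum was 468 to 554 CPM against 968 to 1118 CPM in C57 ear, 6 fell at 14 dpg and 2 at 28 dpg. Their sum in grafts was 743 to 991 CPM in E7 against 1310.5 to 1838 CPM in C57 at 14 dpg, and 1060 to 1510 against 1764 to 1946 CPM at 28 dpg. Of 7 keratinocyte markers 6 rose in E7 ear, 3 at 14 dpg and 3 at 28 dpg. Their sum in ear was 44321 to 50691 CPM against 22455 to 24618 CPM. Over all genes tested in grafts, 2555 of 16189 rose at 14 dpg and 3345 at 28 dpg. All 5 adipocyte and all 5 skeletal muscle markers fell in E7 ear, and none of these 10 was called in either graft comparison by edgeR. Of 7 contractile and pericyte markers 6 could be tested and fell in ear, while 2 fell at 14 dpg and 3 at 28 dpg. Of 4 macrophage markers 1 fell in ear and all 4 at 14 dpg. All 5 endothelial markers fell in ear and at 28 dpg. In C57 grafts against ear 6 of 8 fibroblast markers, 5 of 7 contractile and pericyte markers and 2 of 4 macrophage markers rose on each day. All 5 endothelial markers rose at 14 dpg and 4 of them at 28 dpg, with sums of 287.2 to 368 and 268 to 292 CPM in grafts against 164 to 177 CPM in ear. All 5 skeletal muscle and 3 of 5 adipocyte markers fell at 14 dpg, and 1 adipocyte marker at 28 dpg. Of the 7 keratinocyte markers 2 rose and 1 fell at 14 dpg, and 1 rose and 1 fell at 28 dpg, while no cartilage marker was called on either day by edgeR. The part of these cell types in the levels of the matrix genes was not tested.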

How the data were processed

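Whole ear skin and ear skin grafts were profiled by RNA-seq after Trizol and RNeasy extraction and a TruSeq v2 library preparation, per the labels' protocols. The deposited values are read counts per gene, not normalized, for 27180 genes in 24 libraries. Per the submitters' processing notes, bcl2fastq 1.8.4 and Trimmomatic were run for ear, FastQC and Trimmomatic for grafts, on build mm10. The aligner, counter, annotation and strand setting are not given in the sources used here.

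Counts were tested with edgeR 4.0.16 (quasi-likelihood, robust, TMM scaling, R 4.3.3) after a filter on a minimum count of 10 and a minimum total of 15, with Benjamini-Hochberg adjustment over all genes tested. Ear libraries were fitted alone (6 libraries, 15720 genes), grafts together (18, 16189 genes), and graft against ear in all 24 (16612 genes). CPM use TMM sizes over all 24 libraries. SE is the log2 fold change over the square root of F. Exon lengths are those of the GENCODE M21 annotation on GRCm38, and gene coordinates are those of RefSeq on GRCm38. No pair of libraries was identical. Total counts of 6550011 to 13814448 set the counting error, and 3 counts equal 0.217 to 0.458 CPM. The fits were checked on simulated counts, where the share of false calls in ear was above the nominal rate with gene-wise dispersions and below it with trended ones, which were added after the first were seen. Alternatives were other scalings, filters, DESeq2 1.42.0, a fold threshold, a replicate block, fewer groups in the fit and each library left out.

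The members and lists were chosen with earlier results of these data known. Members were matched by symbol. Genes outside the set were named as up to 4 of a list with the smallest adjusted p in that comparison, and other names are marked. All 45 members are accounted for by role; levels in every library are given for a panel of 18, and in each comparison up to 4 called members with the largest change in each direction are added.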

Additional observations from a re-analysis of the deposited data

Results flagged for a closer look

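The E7 effect in grafts differed from that in ear by a test of the difference itself for 2 members at 14 dpg and 1 at 28 dpg. For Col16a1 the difference was 0.67 at 14 dpg and 0.79 at 28 dpg, in both cases with a smaller fall in grafts than in ear. For Tnc it was -1.77 at 14 dpg, where the rise seen in ear was not called. All 3 calls held in every fit without 1 library and under the other settings run, except that Col16a1 misses the threshold of 1 in log2 fold change. They compare libraries from different flow cells, which cannot be told apart from the tissue. Groups of 3 libraries are too small for a test of single outlying libraries.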

How the results depend on the processing

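Of the 42 calls in ear, 38 held without any 1 library, as did 35 of 40 and 27 of 38 for C57 grafts against ear at 14 and 28 dpg. With all 24 libraries in the fit 5 ear calls were lost: Fbn2 (adjusted p = 0.110), Fbln1 (adjusted p = 0.280), Thbs1, Thbs2 and Prg4. Under every alternative other than the fold threshold, 34 of the 42 held. In grafts, E7 against C57 held 6 of 28 calls at 14 dpg and 7 of 25 at 28 dpg without any 1 library. Every called member kept its direction in every fit run. The number of members called without 1 library was 6 to 29 for E7 against C57 at 14 dpg and 7 to 29 at 28 dpg, 4 to 8 for CD1dKOxE7 against E7 at 14 dpg and 0 to 7 at 28 dpg. Between the days it was 3 to 9 in C57, 0 to 5 in E7 and 3 to 18 in CD1dKOxE7 grafts, and 0 to 5 for the CD1dKOxE7 difference between days. For the E7 effect in grafts less that in ear it was 2 to 4 at 14 dpg and 1 to 2 at 28 dpg. The cause was not tested.

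With upper quartile scaling 3 members were called between the days in E7 grafts. With no filter on low counts 4 were called for CD1dKOxE7 against E7 at 14 dpg, 0 at 28 dpg, 4 between the days in C57 and 2 in E7 grafts. DESeq2 called 3 for CD1dKOxE7 at 28 dpg, 10 between the days in E7 grafts and 2 for the E7 effect at 28 dpg less ear. With a log2 fold change of at least 1 as well, 11 and 9 were called for E7 at 14 and 28 dpg, 2 and 0 for CD1dKOxE7, 4, 1 and 4 between the days in C57, E7 and CD1dKOxE7 grafts, and 1 and 0 for the E7 effect in grafts less ear. In a fit limited to the 2 groups of a comparison, 0 were called for CD1dKOxE7 at 28 dpg and 4 between its days. Over all genes, settings other than the fold threshold and the fits without 1 library moved the calls too. They called 3 to 243 for CD1dKOxE7 at 28 dpg, against 34 in the main fit, and 3993 to 4870 at 14 dpg, against 4828. Between the days they called 3131 to 3745 in C57, against 3661, and 2316 to 2997 in E7 grafts, against 2778. In CD1dKOxE7 grafts they called 1308 to 3864, against 3660.

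Same-numbered libraries did not deviate together, with correlations from -0.349 to 0.294 and no comparison with all 3 over 0.1, so the numbers were not taken as pairs. With the replicate number as a block, 27 and 26 members were called for E7 at 14 and 28 dpg, 5 and 1 for CD1dKOxE7, 9, 6 and 7 between the days in C57, E7 and CD1dKOxE7 grafts, and 0 for each difference between days.

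Refitted under each alternative were 236 single-gene differences, those called or named, and among these signs turned for Postn and Dcn where they were not called. Postn in E7 ear was at -0.061 with upper quartile scaling and from -0.11 (without E7 replicate 3) to 0.19 without 1 library, and -0.088 without C57 replicate 2. Postn in E7 grafts at 28 dpg ran from -0.37 to 0.063, the last without C57 replicate 3, and Dcn in C57 grafts at 28 dpg against ear from -0.25 to 0.062, the last without graft replicate 2. Upper quartile scaling moved the median of all genes by -0.12 in ear and 0.108 for the E7 effect at 14 dpg less ear, and the share of calls that were higher from 50.0 to 39.1% and from 31.8 to 55.2%. It moved that share from 58.4 to 47.9% for E7 at 28 dpg, from 37.1 to 52.2% between the days in C57 grafts and from 30.9 to 49.0% for the E7 effect at 28 dpg less ear. DESeq2 moved it from 35.3 to 57.6% for CD1dKOxE7 at 28 dpg and from 88.9 to 58.6% for the E7 effect between days.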
